A study of Mus musculus with 4 samples.

Results

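The immediate early genes described here are 10 genes, most of which cells switch on within minutes of a stimulus, while Jund is typically expressed without one. They were measured in the spleen of female mice with and without the transcription factor Nrf2. They were chosen by name, as every probe set whose only gene symbol in the platform annotation was Fos, Fosb, Jun, Junb, Jund, Egr1, Egr2, Ier2, Nr4a1 or Dusp1. This gave 13 of 12422 probe sets, with 1 probe set for 7 genes and 2 each for Fos, Junb and Egr1. The set is known as immediate early transcription factors, though Dusp1 encodes a phosphatase and not a transcription factor. The 4 arrays held total spleen RNA, 2 arrays of Nrf2 -/- (knockout) and 2 of Nrf2 +/+ (wild-type) mice, all untreated littermates aged 5 months as far as the labels say. Their heterozygous parents came from crossing Nrf2 +/+ mice of C57B6/SJL background with Nrf2 -/- mice of C57B6/129SVJ background, so both genotypes carry a mixed strain background. Whether an array holds 1 animal or a pool is not in the labels, and p-values then measure only the spread between these arrays, which may be technical.

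As background, signals from growth factors, antigen receptors, adhesion and stress pass through MAP kinases to serum response factor and CREB, which wait on the promoters of these genes. The products then drive a later wave of genes, while the same signal also induces the proteins that end it. Fos and Jun proteins pair to form AP-1, which in lymphocytes and myeloid cells acts with partners such as NFAT at cytokine genes.

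Promoters of Fos, Egr2, Jun, Nr4a1 and Dusp1 are shown. Fos had 1 array far above the rest, and the other genes shared the same order of arrays, as described further on. RefSeq promoter windows (GRCm38.p6) were matched for 8 members, and none was matched for Egr1 and Ier2. Each line gives the 250 bases before the transcription start, 5′ to 3′ on the strand of the gene. Capitals mark every match, on either strand, to the cyclic AMP response element (CRE) TGACGTCA, its core TGACG, the AP-1 site TGANTCA, the antioxidant response element core TGACNNNGC to which Nrf2 binds, or the CArG box of serum response factor. The CRE holds the CRE core, and the antioxidant core can overlap both.
Fos, chr12:85473640-85473889, plus strand: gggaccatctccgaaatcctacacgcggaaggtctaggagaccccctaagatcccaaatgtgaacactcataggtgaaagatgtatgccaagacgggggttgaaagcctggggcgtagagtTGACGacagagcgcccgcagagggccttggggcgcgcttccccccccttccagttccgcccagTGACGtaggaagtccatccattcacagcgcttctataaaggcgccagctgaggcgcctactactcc
Egr2, chr10:67537619-67537868, plus strand: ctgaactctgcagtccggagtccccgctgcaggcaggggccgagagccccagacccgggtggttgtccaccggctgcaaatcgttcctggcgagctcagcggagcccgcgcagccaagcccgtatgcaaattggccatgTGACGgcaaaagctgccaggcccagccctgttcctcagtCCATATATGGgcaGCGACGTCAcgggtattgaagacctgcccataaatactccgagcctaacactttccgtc
Jun, chr4:95052223-95052472, minus strand: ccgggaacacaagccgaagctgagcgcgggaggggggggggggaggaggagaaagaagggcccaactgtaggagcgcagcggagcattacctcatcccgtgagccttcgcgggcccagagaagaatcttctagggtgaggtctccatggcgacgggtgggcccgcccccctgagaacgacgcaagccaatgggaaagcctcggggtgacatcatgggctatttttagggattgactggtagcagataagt
Nr4a1, chr15:101266596-101266845, plus strand: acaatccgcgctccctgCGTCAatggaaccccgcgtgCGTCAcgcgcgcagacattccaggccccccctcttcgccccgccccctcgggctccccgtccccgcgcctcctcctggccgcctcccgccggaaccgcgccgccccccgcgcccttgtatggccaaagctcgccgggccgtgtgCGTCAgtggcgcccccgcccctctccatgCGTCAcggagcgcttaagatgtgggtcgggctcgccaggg
Dusp1, chr17:26508473-26508722, minus strand: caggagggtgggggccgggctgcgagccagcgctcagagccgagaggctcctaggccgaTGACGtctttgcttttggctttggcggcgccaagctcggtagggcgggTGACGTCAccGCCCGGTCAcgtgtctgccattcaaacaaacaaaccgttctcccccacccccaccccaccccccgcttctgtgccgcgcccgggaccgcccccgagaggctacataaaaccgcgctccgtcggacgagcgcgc

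The Fos window held CRE cores at -129 and -66 from the start, and the Nr4a1 window held 4, at -233, -213, -69 and -40. The Dusp1 window held a full CRE at -143, a further CRE core at -191 and an antioxidant core at -133. Egr2 has 5 annotated windows in the table, and the one shown is that with the most kinds of match: a CArG box at -72, an antioxidant core at -59 and CRE cores at -111 and -55. The CRE core was in at least 1 window of Fos, Fosb, Junb, Egr2, Nr4a1 and Dusp1, and in neither the Jun nor the Jund window. The Jun window held no match to any of the motifs as spelled. Variant spellings and bases further upstream were not searched. Over all 32851 windows of this length, 17.8% held the CRE core, 1.55% the full CRE, 6.75% the AP-1 site, 10.2% the antioxidant core and 1.47% the CArG box. A match is a description of these letters and not evidence of binding.

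Values are deposited probe-set intensities, and differences are on the log2 scale, knockout minus wild type, with intensities under a floor of 185.5 set to the floor. A probe set was tested where its mean log2 intensity lay above the 40th percentile of all probe sets, equal to an intensity of 468, which kept 7453. The knockout arrays and wild-type replicate 2 correlated with each other at 0.938 to 0.947 across tested probe sets, and wild-type replicate 1 with each of these at 0.849 to 0.851. Gapdh control signal at the 3' end was 88.3 times that at the 5' end in wild-type replicate 1 and 8.07 to 34.8 times in the others, a ratio that reflects RNA quality and labelling. By the actin control the order differed: 19.3 and 16.1 in knockout replicates 1 and 2, and 14.4 and 8.86 in wild-type replicates 1 and 2, so knockout replicate 1 had the highest ratio. The part of RNA quality in the members' values was not tested. Nfe2l2, the gene of Nrf2, had intensities of 202 and 178.6 in the knockout arrays and 3537 and 6321 in the wild-type arrays (limma, Benjamini-Hochberg adjusted p = 0.0199). Defining spleen markers were present: on these arrays 6 of 6 B cell and 6 of 6 T cell markers lay above the floor in all arrays, and 6 of 7 macrophage markers did. The macrophage marker below the floor in 1 array was Adgre1, at 123.5 in wild-type replicate 1.

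No tested member showed a genotype difference that passed against the spread of the arrays. Of the 9 member probe sets bright enough to test, 0 had a limma adjusted p under 0.05, where 0.0537% of all tested probe sets did. An unadjusted p under 0.05 was also reached by 0 of 9, against 1.74% of all. Egr2, Fos, Egr1, Nr4a1, Dusp1, Fosb and Jund measured higher in knockout spleen, and Ier2 and Junb measured lower, which is 7 of 9 higher where 53.7% of all tested probe sets were. The median of the 9 differences was 0.29, against 0.04 over all tested probe sets, and it ran from 0.14 without knockout replicate 1 to 0.62 without wild-type replicate 2. An exact test of 2 arrays against 2 cannot give a two-sided p below 0.333, so single genes were judged by the fit across all probe sets.

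**Figure D1:**
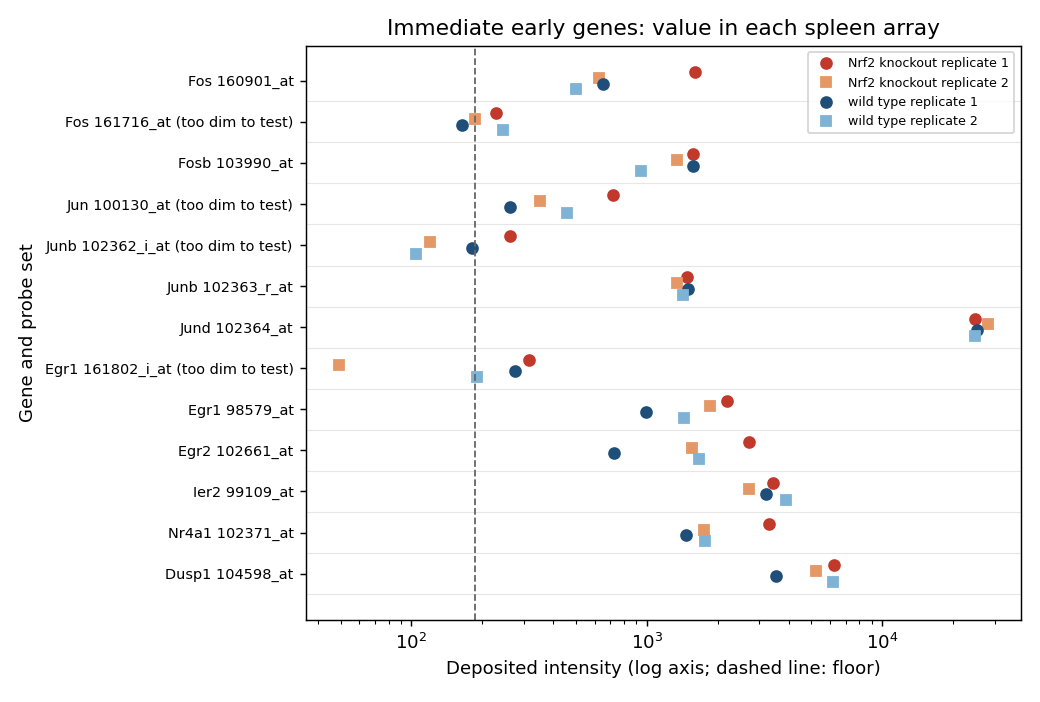
Deposited intensity (horizontal log axis) of each of the 13 probe sets in the 2 knockout and 2 wild-type arrays, 1 point per array, with the floor of 185.5 as a dashed line. Knockout replicate 1 is the highest array for 9 of the 13, while the 4 arrays nearly coincide for Jund and for the brighter Junb probe set.

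Fos, which supplies the short-lived partner in AP-1, read 1594.3 and 627.8 in knockout replicates 1 and 2 and 649.2 and 501.7 in wild-type replicates 1 and 2 (probe set 160901_at). Only knockout replicate 1 was high, and knockout replicate 2 lay between the wild-type arrays, so the groups overlapped. The difference was 0.81 (SE 0.56, 95% confidence interval -0.495 to 2.11, limma adjusted p = 0.992). Without knockout replicate 1 it was 0.14, and without knockout replicate 2 it was 1.48. The second Fos probe set, 161716_at, was too dim to test, with 228.6 and 187.1 in the knockout and 164.3 and 244.0 in the wild-type arrays. It did not show the high value of knockout replicate 1, and wild-type replicate 2 was its brightest array.

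Fosb, a Fos relative that also pairs with Jun proteins, had intensities of 1575.2 and 1339.6 in the knockout arrays and 1571.1 and 948.8 in the wild-type arrays. Wild-type replicate 2 was low and the other 3 arrays lay close together. The difference was 0.25 (SE 0.44, interval -0.76 to 1.26, limma adjusted p = 0.992). It turned to -0.11 without wild-type replicate 2 and was 0.61 without wild-type replicate 1.

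The Jun family, whose proteins pair with each other or with Fos proteins, ranged from variable to nearly constant. Jun had intensities of 716.2 and 352.9 in the knockout arrays and 261.8 and 459.2 in the wild-type arrays, a mean below the threshold for testing. Knockout replicate 1 was again the highest array, wild-type replicate 1 the lowest, and the groups overlapped. The knockout arrays of Jun differed by 2.03-fold and the wild-type arrays by 1.75-fold, both wider than the 1.45-fold gap between the genotype means. With all probe sets tested, the Jun difference of 0.54 had an SE of 0.57. Jun passed the filter only with wild-type replicate 1, its lowest array, left out, and its difference was then 0.13. The other fits with 1 array left out did not test it.

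Jund, the member of the family that is typically expressed without a stimulus, had intensities of 24695.8 and 28130.1 in the knockout arrays and 25320.4 and 24774.6 in the wild-type arrays. All 4 arrays lay within 1.14-fold of each other. Its difference was 0.07, with an interval of -0.87 to 1.02 that is set by the spread shared over probe sets of like intensity. That interval reaches a 2.03-fold higher level, so a smaller difference is not shown to be absent.

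Junb, often a brake on Jun in resting cells, was measured by 2 probe sets whose names mark possible cross-hybridisation. The brighter, 102363_r_at, had intensities of 1485.4 and 1344.5 in the knockout arrays and 1495.1 and 1425.0 in the wild-type arrays, a spread of 1.11-fold and a difference of -0.05 (interval -0.95 to 0.86, limma adjusted p = 0.997). The other, 102362_i_at, read 262.0 and 120.2 against 181.2 and 104.5, with 3 of 4 values below the floor. Jund and the brighter Junb probe set were 2 of 9 tested members with all arrays within 1.2-fold, a narrow range found in 3.60% of all tested probe sets.

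**Figure D2:**
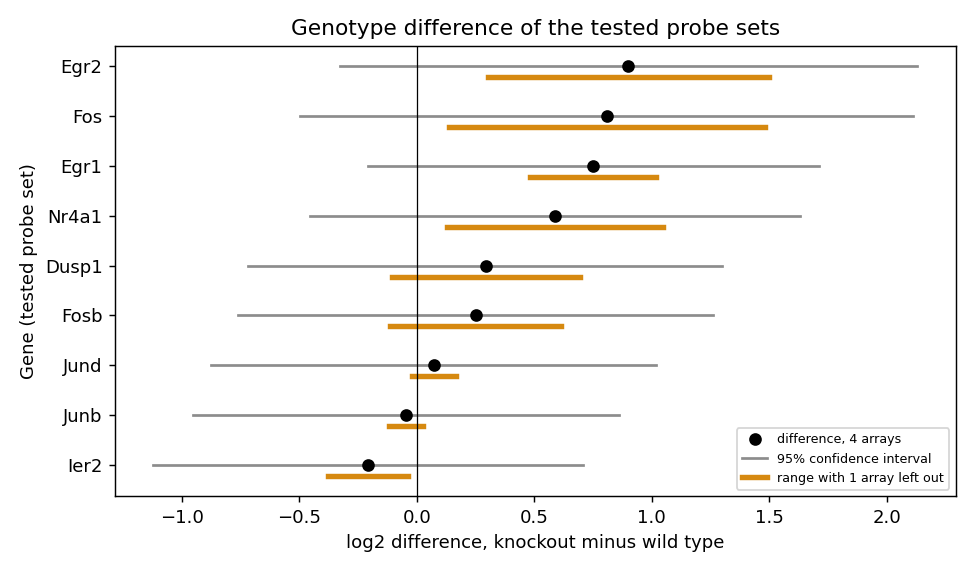
Difference in log2 intensity (horizontal axis, knockout minus wild type) for the 9 tested probe sets, with its 95% confidence interval in grey and the range with 1 array left out in orange. Every interval crosses 0, and the orange ranges of Egr2, Fos, Egr1 and Nr4a1 stay above 0 while those of Dusp1, Fosb, Jund and Junb cross it and that of Ier2 stays below it.

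The EGR genes encode zinc finger factors, and in lymphocytes Egr2 is known as a restraint on T cell activation. Egr1 had intensities of 2180.5 and 1853.1 in the knockout arrays and 993.3 and 1439.7 in the wild-type arrays (probe set 98579_at). Both knockout arrays lay above both wild-type arrays. It was the single tested member whose groups did not overlap with knockout higher, a pattern shown by 14.3% of all tested probe sets, and 0 of 9 were separate with knockout lower, against 12.2% of all. The Egr1 difference was 0.75 (SE 0.41, interval -0.21 to 1.71, limma adjusted p = 0.992), a 1.68-fold higher mean. With 1 array left out it ranged from 0.48 to 1.02, the lowest and highest for wild-type replicates 1 and 2. The second Egr1 probe set, 161802_i_at, read 316.0 and 49.1 in knockout against 276.3 and 190.8, so the order of the first probe set was not seen there. That probe set was too dim to test and its name marks possible cross-hybridisation.

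Egr2 gave the largest difference among the tested members. It had intensities of 2713.8 and 1555.0 in the knockout arrays and 726.4 and 1665.6 in the wild-type arrays. Knockout replicate 1 was high, wild-type replicate 1 was low, and the remaining arrays of the 2 genotypes differed little. The difference was 0.90 (SE 0.53, interval -0.33 to 2.13, limma adjusted p = 0.992). Leaving out wild-type replicate 1 gave 0.30, and leaving out wild-type replicate 2 gave 1.5. With the latter left out, Egr2 and Egr1 were the 2 members with an unadjusted p under 0.05, with limma adjusted p of 0.110 and 0.118, but in that fit 29.3% of all tested probe sets reached the same.

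Nr4a1, an orphan nuclear receptor induced by antigen receptor signals, had intensities of 3315.8 and 1753.9 in the knockout arrays and 1462.8 and 1762.9 in the wild-type arrays. Knockout replicate 1 stood 1.89-fold above knockout replicate 2 and 2.27-fold above wild-type replicate 1. The remaining 3 arrays lay close together. The difference was 0.59 (SE 0.45, interval -0.45 to 1.63, limma adjusted p = 0.992) and was 0.13 without knockout replicate 1 and 1.05 without knockout replicate 2. Ier2, a small nuclear protein gene of the same early wave, read 3442.2 and 2721.6 against 3199.5 and 3897.1. Its arrays overlapped, with a difference of -0.21 (interval -1.12 to 0.71) that was -0.38 without knockout replicate 1 and -0.037 without knockout replicate 2.

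Dusp1 encodes a phosphatase that switches off the p38 and JNK kinases and so limits the signal that induces it. It had intensities of 6251.6 and 5247.2 in the knockout arrays and 3542.3 and 6157.3 in the wild-type arrays. Wild-type replicate 1 alone was low. The difference of 0.29 (SE 0.44, interval -0.72 to 1.30, limma adjusted p = 0.992) turned to -0.10 without that array and was 0.69 without wild-type replicate 2.

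**Figure D3:**
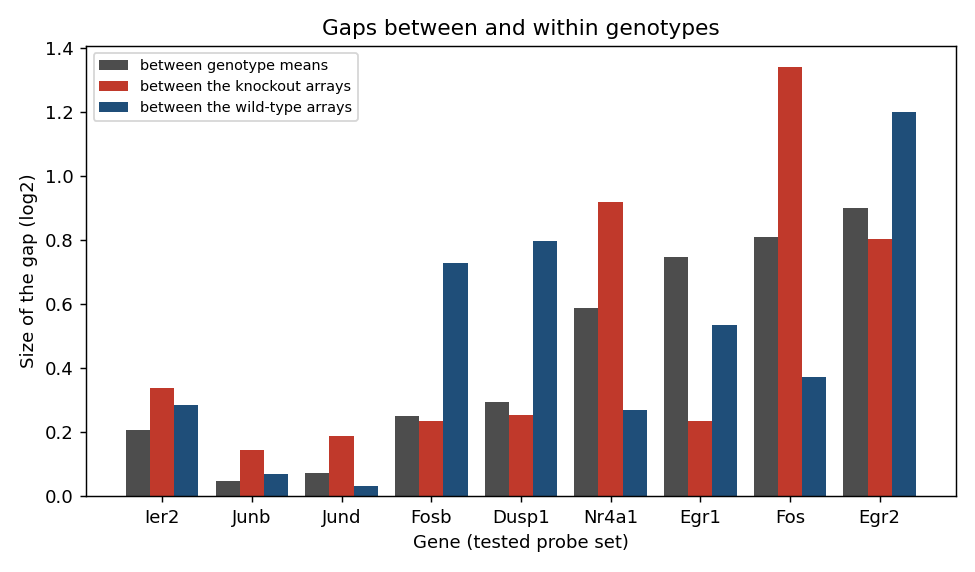
Size of the log2 gap (vertical axis, from 0) between the genotype means, between the 2 knockout arrays and between the 2 wild-type arrays, for each tested probe set. Egr1 is the only 1 of the 9 in which the gap between the genotypes exceeds both gaps within a genotype.

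For 8 of the 9 tested members a gap between arrays of 1 genotype was larger than the gap between the genotypes, which also held for 87.2% of all tested probe sets. The gap between the knockout arrays ran in 1 direction: knockout replicate 1 was above knockout replicate 2 for 8 of 9, against 50.8% of all. Knockout replicate 1 was the highest of the 4 arrays for 6 of 9, namely Fos, Fosb, Egr1, Egr2, Nr4a1 and Dusp1, against 20.8% of all. Wild-type replicate 1 was the lowest for 4 of 9, namely Egr1, Egr2, Nr4a1 and Dusp1, against 39.2% of all. These are descriptions of single arrays, and members of the set are not independent of each other.

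Egr2, Nr4a1 and Dusp1, and Jun among the untested, shared the full order of arrays, from knockout replicate 1 through wild-type replicate 2 and knockout replicate 2 to wild-type replicate 1. This order, singled out after the values were seen, held for 6.94% of all tested probe sets. In it the genotypes alternate.

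Summed marker levels differed between arrays. The genotypes did not overlap for platelet and plasma cell sums, higher in knockout, or for exocrine pancreas and T cell sums, lower in knockout. Single markers overlapped in the plasma cell (Sdc1, Xbp1, Prdm1), platelet (Gp9) and T cell (Cd3e, Cd3g) lists, so the sums do not stand for every marker. Among single tested probe sets, 14.3% were separate with knockout higher and 12.2% with knockout lower. The 6 erythroid markers summed to 21566 in knockout replicate 1, against 96722 to 128692 in the other 3 arrays. The 7 macrophage markers summed to 131268 in knockout replicate 1, against 85960 to 110500. Cd68, C1qa, C1qb and C1qc were highest in knockout replicate 1, while Adgre1, Cd5l and Vcam1 were highest in other arrays. In wild-type replicate 1 the 4 plasma cell markers summed to 24677, against 58688 to 69222. The 8 endothelial and stromal markers summed there to 16751, against 24223 to 26405. Of the markers in these lists, Pecam1 and Col1a1 were lowest in other arrays, and Col1a2 and Sdc1 were highest in wild-type replicate 1. The 7 exocrine pancreas markers summed to 85850 in that array and 21656 in wild-type replicate 2, against 8436 and 10297 in knockout replicates 1 and 2, so both knockout arrays were lower. The 4 platelet markers summed to 7136 and 7359 in the knockout arrays and to 5332 and 2660 in the wild-type arrays, so both knockout arrays were higher. Neutrophil markers summed to 166834 in wild-type replicate 2, against 474035 to 689316. B cell and T cell sums were highest in wild-type replicate 1, at 300029 and 44993, against 140401 to 170969 and 23014 to 32898. Blnk and Cd3g were lowest in that array and Cd79a was highest in wild-type replicate 2, unlike the other B cell and T cell markers. The part of these cell types in the members' values was not tested. In whole tissue, fewer cells of a type and less RNA per cell cannot be told apart.

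The pattern of Fos over the 4 arrays was compared with that of every tested probe set with a single gene symbol, by the Euclidean distance between log2 profiles centred on their own means. Tinf2, Kdelr3, Acp1, Fcer1g and Cd72 were nearest among non-members, at distances of 0.26 to 0.38 on the log2 scale. The probe-set names of Tinf2, Kdelr3 and Fcer1g mark possible cross-hybridisation. Cd72, a B cell surface receptor, read 22817 in knockout replicate 1 and 6473 to 7730 in the others, and Fcer1g, the common Fc receptor gamma chain, read 4761 and 1770 to 2340. Among the members Nr4a1 was nearest to Fos, at 0.59 and rank 24 of 6702. Fosb followed at 0.996 and rank 413, and Egr1 at 1.02 and rank 473, so many non-members lay nearer to Fos than these. Jund was the farthest, at 1.33 and rank 2299.

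The wider pathway was examined as 5 gene lists, some of which share genes. Counts of genes higher in knockout are to be read against 53.7% of all tested probe sets, and list medians against 0.04. In the fit as described, 0 genes of any list reached an unadjusted limma p under 0.05. Among alternatives that kept all 4 arrays, 1 feedback gene did without the filter and 1 signalling gene with the replicate block. Some list genes also did in each fit that left 1 array out. Without wild-type replicate 2, between 3 and 8 genes of each list did, at limma adjusted p of 0.0621 or more, in a fit where 29.3% of all tested probe sets did. Of 32 other immediate early genes tested, 0 passed the limma test, 23 measured higher in knockout and 9 lower, with a median difference of 0.30. Wild-type replicate 1 was the lowest array for 24 of the 32, against 39.2% of all tested probe sets. Knockout replicate 1 was the highest for 8 of the 32, against 20.8% of all. Without wild-type replicate 1, 14 measured higher and 18 lower, with a median of -0.04. In that fit 50.8% of all probe sets were higher, with a median of 0.0054. Without wild-type replicate 2 the median was 0.63, against 0.0036 over all. Atf3, a stress-induced AP-1 relative, had intensities of 3957.1 and 1778.4 in the knockout arrays and 1161.0 and 1720.5 in the wild-type arrays. Knockout replicate 1 was high, as for Fos (difference 0.91, SE 0.50, limma adjusted p = 0.992). The name of the Atf3 probe set marks possible cross-hybridisation. Cebpd, a bZIP factor of the acute phase, read 6489.8 and 6534.8 against 2028.2 and 5925.6, so that wild-type replicate 1 stood alone. Rhob and Vcl, both serum-induced genes of the actin cytoskeleton, gave 0.82 each and were likewise lowest in wild-type replicate 1.

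Genes of the signalling that leads to the immediate early genes gave 0 passing of 19 tested. They were 11 higher and 8 lower, a split near that of all probe sets, with a median of 0.13. Of the 19, 5 were highest in knockout replicate 1, against 20.8% of all tested probe sets. The kinase genes Mapk8 (JNK1), Map3k8 and Mapk7 (ERK5) gave 0.97, 0.87 and 1.17, and the GTPase gene Nras 0.81, each with a limma adjusted p of 0.992 and each lowest in wild-type replicate 1. Without that array 6 of 18 measured higher and 12 lower, with a median of -0.09, and the median was 0.48 without wild-type replicate 2.

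Other AP-1 relatives and partners gave 0 passing of 15, 9 higher and 6 lower, with a median of 0.01 that ran from 0.03 to 0.32 with 1 array left out, highest without knockout replicate 2. With each array centred on its median, or after quantile normalization, this split turned to 6 higher and 9 lower, with medians of -0.04 and -0.05. Mafg, a small Maf protein that pairs with Nrf2, had intensities of 2498.1 and 3631.7 in the knockout arrays and 1783.2 and 1714.3 in the wild-type arrays. Both knockout arrays were above both wild-type arrays, at a difference of 0.79 (SE 0.40, limma adjusted p = 0.992). Nfatc1, a partner of AP-1 in lymphocytes, gave 0.72, and Atf4, the factor of the amino acid and ER stress response, gave -0.61 with both knockout arrays below both wild-type arrays. This list shares Atf3 and other genes with the list of immediate early genes. Of its 15 tested genes, 6 were highest in knockout replicate 1, against 20.8% of all tested probe sets.

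Feedback and mRNA decay genes gave 0 passing of 13, 10 higher and 3 lower, with a median of 0.29 that was 0.01 without wild-type replicate 1, 0.50 without knockout replicate 2 and 0.58 without wild-type replicate 2. Dusp6, the phosphatase of ERK, had intensities of 808.7 and 875.8 in the knockout arrays and 1064.2 and 1570.6 in the wild-type arrays. Its difference was -0.62 (SE 0.44, limma adjusted p = 0.992). That sign was opposite to that of Dusp1, whose own difference turned to -0.10 without wild-type replicate 1. Zfp36 and Zfp36l1, which encode proteins that bring early RNAs to decay, gave 0.49 and 0.74, and Nab1, a corepressor of EGR factors, gave 0.69. All 3 were lowest in wild-type replicate 1. Of the 13 tested genes of this list, 7 were highest in knockout replicate 1, against 20.8% of all tested probe sets. The name of the Zfp36 probe set marks possible cross-hybridisation.

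Heat shock genes, which respond to protein damage, gave 0 passing of 11, 6 higher and 5 lower, with a median of 0.02, and both other scalings gave 5 higher and 6 lower. The median was 0.28 and -0.22 without knockout replicates 1 and 2, and -0.06 and 0.36 without wild-type replicates 1 and 2. Knockout replicate 1 was the highest array for 0 of the 11, against 20.8% of all tested probe sets. Hspa8, a constitutive chaperone, and its cochaperone gene Bag3 read highest in wild-type replicate 1 and gave -0.55 and -0.71. The cochaperone genes Dnajb1 and Dnaja1 read lowest in that array and gave 0.36 and 0.26. The name of the Bag3 probe set marks possible cross-hybridisation.

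**Figure D4:**
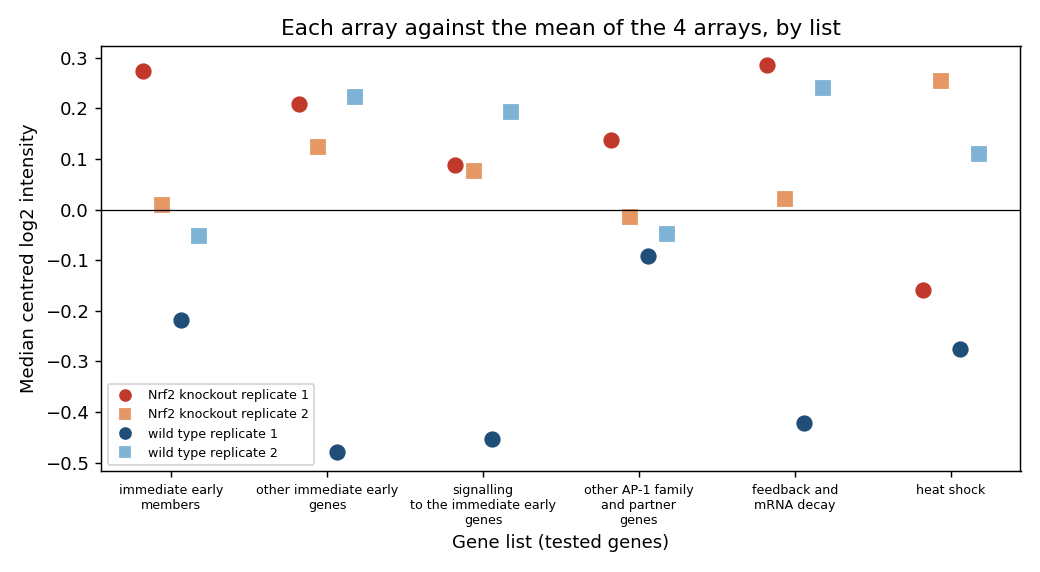
Median over tested genes of the log2 intensity centred on each gene's mean of 4 arrays (vertical axis), for the 9 tested immediate early probe sets and the 5 gene lists, 1 point per array. Knockout replicate 1 is highest for the members at 0.27, and also for the feedback list at 0.285 and the AP-1 list at 0.137. Wild-type replicate 1 is the lowest array in every column, and the heat shock list has knockout replicate 1 below 0, at -0.16.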

How the data were processed

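Total spleen RNA was measured on 4 1-colour expression arrays. The deposited values are probe-set intensities on a linear scale; which software and scaling the authors used is not given in the sources here. Their 2% trimmed means were 2501.5 to 2502.0, so arrays were not rescaled. The number of arrays limits the precision. After 66 control probe sets were removed, symbols came from the platform annotation, updated by gene identifier. Of 12422 probe sets, 10833 had 1 symbol (10817 matched), 396 several and 1193 none, and no member came from a probe set with several. Genotypes were tested with limma 3.58.1 (R 4.3.3; linear model, empirical Bayes with an intensity trend, two-sided), with p-values adjusted by Benjamini-Hochberg over all 7453 tested probe sets at 0.05, and tested on simulated data. Lists used the brightest tested probe set of each gene. Named genes were all members, Nfe2l2, up to 4 genes of each list by p, and the 5 nearest to Fos. Fold differences understate those of dim genes. Motifs and marker sums are descriptions. Members and lists were chosen with earlier results of these data known. Alternatives changed the scaling, the floor, the filter and the variance model, added a replicate block, or left out arrays or probe sets. Figures used matplotlib 3.10.9.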

Additional observations from a re-analysis of the deposited data

How the results depend on the processing

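No member probe set passed under any of 14 alternatives, the replicate block included (0 passing), and no gene of the 5 lists passed under them either. Of 123 recomputed differences of single members, 119 kept their direction. That count overstates how far direction was put to a test. The higher floor and the changes of filter and variance model left every member difference as it was. So did the replicate block and the omission of cross-hybridising probe sets. The 4 that turned each came from leaving out 1 array. Junb ranged from -0.12 to 0.025 and Jund from 0.17 to -0.020, the latter value of each without knockout replicate 2. Dusp1 ranged from 0.69 to -0.10, turning without wild-type replicate 1, and Fosb from 0.61 to -0.11, turning without wild-type replicate 2. The median difference of the tested members ranged from 0.14 to 0.62 with 1 array left out. Over all probe sets, the limma count of 4 was 7 with a pseudocount of 100, 0 without the filter, where all 12422 were tested, 2 without cross-hybridising probe sets and 36 with the replicate block. With 1 array left out the count was 3 to 13, with 10 and 13 without knockout replicates 1 and 2. Same-numbered arrays deviated together with r = 0.04 only, so the numbers were not taken as pairs. Scaling moved the median of all probe sets by under 0.1.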
